A study of Homo sapiens with 39 samples.

Results

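The glutathione transferase genes GSTA1, GSTA2, GSTA4, GSTM2, GSTM3, GSTM4, GSTP1, GSTO1, GSTK1 and MGST1 were selected by gene symbol, and all 10 were found among the 20802 gene targets of the AmpliSeq panel, each with 1 target. AmpliSeq amplifies 1 short stretch of each transcript, and its reads are counted per target and scaled to the library total (RPM, reads per 1000000 reads). The cells were differentiated HepaRG™ cells, a human hepatoma cell line that yields hepatocyte-like and cholangiocyte-like cells. All cultures received test chemical or vehicle daily over 3 days and were collected 7 h after the last dose (55 h in total). RNA of 3 cultures was pooled into each of the 39 libraries, so a condition is 1 library and the spread between cultures was not measured.

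The 5 DNA damage-inducing (DDI) chemicals were AFB1 (aflatoxin B1, at 0.25, 1 and 2.5 µM), 2NF (2-nitrofluorene, at 10, 50 and 250 µM), CISP (cisplatin, at 2, 5 and 10 µM), ETP (etoposide, at 0.5, 2.5 and 10 µM) and MMS (methyl methanesulfonate, at 50, 100 and 200 µM). The 5 non-DDI chemicals were COL (colchicine, at 0.05, 0.1 and 0.3 µM), 2DG (at 1.25, 5 and 10 mM), AMP (at 1, 3 and 10 mM), ASC (at 1, 2 and 10 mM) and NaCl (at 1, 2.5 and 10 mM). The 9 vehicle controls were 4 in DMSO (for AFB1 with COL, 2NF, CISP and ETP), 4 in media (for 2DG, AMP, ASC and NaCl) and 1 in water (for MMS). Vehicle and class were nearly confounded, since COL was the only non-DDI chemical in DMSO.

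Library totals ranged from 8504699 to 16425527 reads. The lowest median correlation with the other libraries over 11562 genes was found in 4 libraries, namely MMS at 100 µM (Pearson's r = 0.923) and 200 µM (0.932) and CISP at 5 µM (0.954) and 2 µM (0.956). The next were COL at 0.3 µM (0.956) and 2NF at 250 µM (0.956), level with CISP at 2 µM, so no gap set the 4 apart from these. The seventh was 2NF at 50 µM (0.964). Counts of member trends are given with and without the 4, and with and without all 6. Called slopes of members are given also without the 4, without all 6 or both. For all genes, other gene lists, the classes and correlations with GSTA1, no values without the 4 or the 6 are given. Hepatocyte markers were present, with ALB, the plasma albumin gene, at a median of 22105 RPM. Of the 7 cholangiocyte markers, KRT19 had a median of 974 RPM, whereas KRT7, EPCAM and CFTR had at most 3 reads in any library.

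Glutathione transferases join the tripeptide glutathione to reactive electrophiles, among them the epoxide formed from aflatoxin B1, and the conjugates are exported from the cell and trimmed to mercapturic acids. The cytosolic enzymes fall into classes named alpha (GSTA), mu (GSTM), pi (GSTP) and omega (GSTO), while the kappa enzyme GSTK1 resides in mitochondria and peroxisomes and MGST1 is a membrane enzyme of the endoplasmic reticulum and outer mitochondrial membrane. In liver, alpha-class enzymes are abundant in hepatocytes, and GSTP1 is known from bile duct cells and many tumours rather than from normal hepatocytes.

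The 250 bases upstream of the start were taken from RefSeq (GRCh38.p14) for all 10 genes, and 4 of them are shown because they set the near-identical GSTA1 and GSTA2 apart from a mu-class gene and from the barely read GSTP1. They are chr6:52803817-52804066, minus strand (GSTA1), chr6:52763476-52763725, minus strand (GSTA2), chr1:109655849-109656098, plus strand (GSTM4) and chr11:67583562-67583811, plus strand (GSTP1), each written 5′ to 3′ on the strand of its gene. Capitals mark matches, on either strand, to the TATA box TATAAA, a half-site of the liver factor HNF1 (GTTAAT, which reads ATTAAC on the other strand), the core of the xenobiotic response element (GCGTG, or CACGC) and the core of the antioxidant response element (TGACNNNGC).
GSTA1: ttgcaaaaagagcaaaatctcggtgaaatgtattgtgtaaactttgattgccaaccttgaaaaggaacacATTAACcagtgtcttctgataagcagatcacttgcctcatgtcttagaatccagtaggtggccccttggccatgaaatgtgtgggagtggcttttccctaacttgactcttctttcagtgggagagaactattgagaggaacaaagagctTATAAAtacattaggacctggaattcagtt
GSTA2: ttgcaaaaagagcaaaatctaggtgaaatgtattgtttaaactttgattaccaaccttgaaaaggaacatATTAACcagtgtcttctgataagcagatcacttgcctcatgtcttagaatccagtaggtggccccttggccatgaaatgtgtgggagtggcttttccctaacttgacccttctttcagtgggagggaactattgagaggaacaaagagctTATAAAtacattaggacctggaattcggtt
GSTM4: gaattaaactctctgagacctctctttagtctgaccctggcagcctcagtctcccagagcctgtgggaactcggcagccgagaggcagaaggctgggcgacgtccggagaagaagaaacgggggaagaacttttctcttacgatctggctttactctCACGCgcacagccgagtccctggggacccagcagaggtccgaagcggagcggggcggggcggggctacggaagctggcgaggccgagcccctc
GSTP1: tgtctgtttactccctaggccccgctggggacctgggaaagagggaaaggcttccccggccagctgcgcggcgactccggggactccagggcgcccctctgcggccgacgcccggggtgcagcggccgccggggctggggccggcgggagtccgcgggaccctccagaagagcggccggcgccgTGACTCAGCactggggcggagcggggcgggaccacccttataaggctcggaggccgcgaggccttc

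GSTA1 and GSTA2 were identical at 243 of 250 bases (97.2%), and each held the TATA box and the HNF1 half-site. Among 35116 promoter windows of this length, 10.7% held TATAAA and 6.23% held GTTAAT. GSTM4 held 1 xenobiotic response core (32.2% of all windows) and GSTP1 1 antioxidant response core (10.9% of all windows). Among the genes not shown, GSTO1 held 2 antioxidant response cores and 1 TATA box, and GSTA4 held 1 antioxidant response core. GSTM3 held 1 xenobiotic response core, and the first listed window of MGST1 held 2 HNF1 half-sites. The GSTP1 window had 74.8% G and C with 28 CpG pairs, against 40.8% and 1 CpG pair in GSTA1. Such matches describe letters only. The transcripts of GSTA1 and GSTA2 are also alike, and 12.0% of the 100-base windows of GSTA1 occur unchanged in another gene, most often GSTA2. For GSTM2 the share was 40.7%, most often in GSTM1, and for GSTM4 2.72%. The amplicon sequences were not used here, so how reads were divided between such genes was not tested. Levels of different genes were not ranked, because each depends on its own amplicon.

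At least 10 reads in every library were found for 7 members. GSTA1 ranged from 198 to 2404 RPM with a median of 1638 over the 39 libraries, and MGST1 from 1252 to 2584 RPM with a median of 2040. GSTK1 had a median of 421 RPM, GSTM4 of 82.3 RPM and GSTO1 of 35.7 RPM. GSTA4 (median 8.73 RPM, 34 to 176 reads) and GSTA2 (median 2.88 RPM, 10 to 69 reads) were read less deeply. The lowest GSTA2 value, 1.13 RPM from 10 reads in MMS at 200 µM, had a 95% Wilson interval from 0.613 to 2.08 RPM, which covers counting error only. The lowest GSTA1 value, 198 RPM from 2254 reads in MMS at 100 µM, had an interval from 190 to 207 RPM.

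The other 3 members were near the limit of reading. GSTP1 had 0 reads in 34 libraries and 1 read in 5, at most 0.094 RPM, and a count of 0 allows up to between 0.183 and 0.353 RPM depending on the library (3 reads). GSTM2 had 0 to 15 reads and GSTM3 0 to 14, at most 1.06 and 1.13 RPM. No trend of GSTM2 or GSTM3 was called. GSTP1 did not pass the filter on low counts and did not enter the tests below. Whether so few reads mean little RNA or a target that amplifies poorly was not tested.

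GSTA1, the main alpha-class enzyme of liver, was lowest in the libraries of MMS, COL and 2NF. With 2NF the control had 2348 RPM, and 2404, 807 and 581 RPM were read at 10, 50 and 250 µM. With COL the control had 2303 RPM, and the value was 1520, 1197 and 533 RPM at 0.05, 0.1 and 0.3 µM. The COL libraries were lower at each concentration, while the 2NF library at 10 µM was level with its control and the next was much lower. With MMS the control had 1079 RPM, and 877, 198 and 321 RPM were read at 50, 100 and 200 µM, so the middle concentration was the lowest. AFB1, which shares the control of COL, gave 2236, 1815 and 1365 RPM at 0.25, 1 and 2.5 µM. In these bulk libraries, fewer cells of a type and less RNA per cell cannot be told apart.

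**Figure D1:**
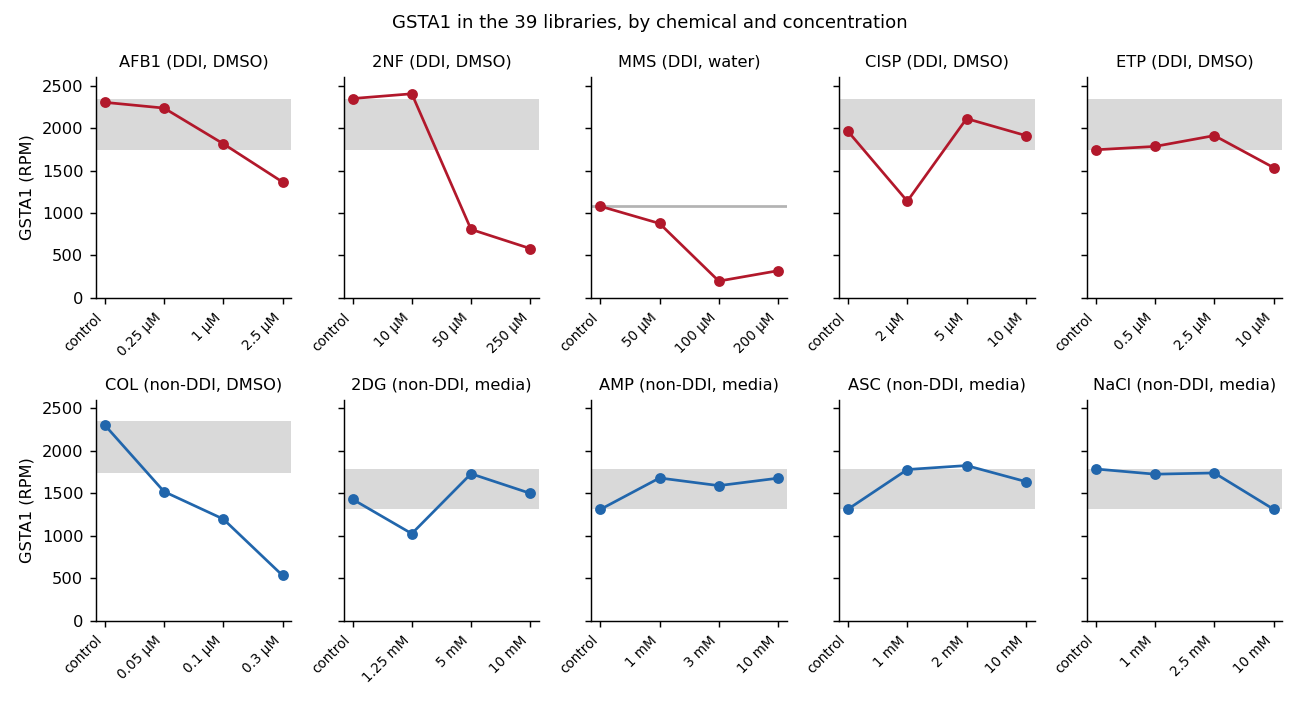
GSTA1 in RPM (vertical axis) against concentration (horizontal axis, matched control first), 1 panel per chemical and 1 point per library, with DDI chemicals in red and non-DDI chemicals in blue. The grey band spans the 4 controls of the same vehicle (for MMS, a line at the 1 water control), and the points of 2NF, MMS and COL end at 581, 321 and 533 RPM, far below it. AFB1 (1365 RPM) and ETP (1535 RPM) also end below the band, whose lowest DMSO control is at 1744 RPM.

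With the remaining chemicals GSTA1 was nearer to its control at the highest concentration. ETP gave 1784, 1912 and 1535 RPM against 1744 RPM. CISP gave 1139, 2112 and 1912 RPM against 1960 RPM, with the lowest value at 2 µM, 1 of the 4 libraries of lowest correlation. 2DG gave 1025, 1730 and 1499 RPM against 1430 RPM, and NaCl 1725, 1740 and 1312 RPM against 1786 RPM. CISP at 2 µM (log2 ratio -0.78) and 2DG at 1.25 mM (-0.48) were below their controls by more than the largest difference between 2 controls of their vehicle (0.43 in DMSO, 0.45 in media). AMP (1680, 1590 and 1678 RPM against 1310 RPM) and ASC (1780, 1827 and 1638 RPM against 1314 RPM) lay above their own controls at every concentration, yet only ASC at 2 mM did so by more than the largest difference between 2 media controls (0.45 on the log2 scale).

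Trends over concentration were tested in 1 edgeR quasi-likelihood fit of the 39 libraries, with a slope for each chemical in log2 units per concentration step (control, low, mid, high) and a term for each control set. Over 9 members and 10 chemicals, 10 of 90 trends were called lower and 0 higher at an adjusted p under 0.05. Of trends with an unadjusted p under 0.05, 20 were lower and 1 was higher, and DESeq2 called 12 lower and 0 higher. All 10 calls came from 2NF, COL and MMS, and 5 members had at least 1. Without the high concentration 3 trends were called (GSTA1, GSTM4 and GSTK1 in MMS), without the low 6, and without the controls 0. Without the 6 libraries named above 5 trends were called lower, namely GSTA1 in 2NF and COL, GSTM4 and GSTK1 in COL, and GSTK1 in AFB1. Slopes differed between the 10 chemicals for GSTA1 (adjusted p = 0.00174), GSTM4 (adjusted p = 0.0187) and GSTK1 (adjusted p = 0.0431), a test that called 11.0% of the 13812 genes.

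These counts stand against the share of all 13812 genes called. In MMS 10.4% were called lower and 5.1% higher, in COL 7.21% and 5.13%, in 2NF 4.45% and 4.3%, and in AFB1 3.21% and 2.36%. Scaling by library totals alone changed the split for MMS from 1435 lower and 705 higher to 1146 and 1104, and for COL from 996 and 708 to 835 and 886. For 2NF it changed from 614 and 594 to 536 and 678, and for AFB1 from 443 and 326 to 370 and 439. In ASC 0.0434% of genes were called lower and 0.0145% higher, in NaCl 0.00724% and 0.0362%, and in ETP 0.0% and 0.0796%. In 2DG, AMP and CISP 0.0% were called in either direction. Members called lower numbered 4 of 9 in MMS, 4 of 9 in COL and 2 of 9 in 2NF. The median member slope was -0.26 in MMS and COL and -0.22 in 2NF, while the median over all genes was -0.01, 0.00 and 0.00.

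GSTA1 fell with 2NF by 0.80 ± 0.16 log2 units per step (SE, adjusted p = 0.000948), with MMS by 0.74 ± 0.14 (adjusted p = 0.000812) and with COL by 0.71 ± 0.14 (adjusted p = 0.00114). Its slope in AFB1 was -0.31 ± 0.14 (adjusted p = 0.266). At the highest concentration GSTA1 was below its control by more than 2-fold in 2NF, COL and MMS, with log2 ratios of -2.01, -2.11 and -1.75, and by less in AFB1 (-0.75). AFB1 and COL were set against the same control, so these differences are not independent. Without the 4 libraries of lowest correlation, the MMS slope rested on the control and 50 µM only, too few to decide a call, and was -0.37. The calls for 2NF and COL were kept. They were also kept without all 6 libraries, at -0.78 in 2NF (adjusted p = 0.00883) and -0.55 in COL (adjusted p = 0.0365).

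GSTA2, also of the alpha class, fell with COL by 0.46 ± 0.15 per step (adjusted p = 0.0363), at few reads. Its COL libraries had 3.25, 2.68 and 1.95 RPM against 4.37 RPM in the control. The call was lost without the filter on low counts (adjusted p = 0.0512) and with library totals alone (adjusted p = 0.0517), and without all 6 libraries (adjusted p = 0.267). The slopes of GSTA2 were not shown to differ between the chemicals (adjusted p = 0.49), and its slope in 2DG was -0.36 ± 0.17 (adjusted p = 1.0). In 2NF it read 5.16, 5.62 and 2.88 RPM against 5.87 RPM, so at 50 µM it was at its control while GSTA1 was at 807 RPM. In MMS it had 2.82, 1.94 and 1.13 RPM against 1.67 RPM, from 10 to 28 reads, and the slope was not called (adjusted p = 0.468).

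GSTA4, an alpha-class enzyme with a preference for the lipid peroxidation product 4-hydroxynonenal, had no called trend. Its unadjusted p was under 0.05 for 1 chemical, MMS, with a slope of -0.44 ± 0.21 (adjusted p = 0.162). By the log2 ratio of RPM + 1, it was more than 2-fold below the control in 3 libraries. These were CISP at 2 µM (2.96 against 7.92 RPM), CISP at 5 µM (3.21 RPM) and MMS at 100 µM (3.34 against 13.2 RPM). All 3 are among the 4 libraries of lowest correlation, and CISP at 10 µM read 8.34 RPM, level with its control. By the same ratio GSTA4 was more than 2-fold above the control in AMP at 1 mM (13.9 against 5.21 RPM). It was not at 3 mM (5.74 RPM) or 10 mM (8.48 RPM). In plain RPM, without the added 1, GSTA4 was also more than 2-fold lower in 2DG at 1.25 mM (5.14 against 10.7 RPM). In ASC at 2 mM it was more than 2-fold higher (11.6 against 5.36 RPM). GSTA4 ranged from 5.21 to 10.7 RPM among the media controls themselves.

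More than 2-fold differences from the control, by the log2 ratio of RPM + 1, were common in some of these libraries. Of all 13812 genes, those more than 2-fold lower made up 3.95% in 2NF at 50 µM, 3.16% in 2NF at 250 µM, 4.41% with the top concentration of COL, 7.04% in MMS at 100 µM, 5.36% in MMS at 200 µM, 6.23% in CISP at 2 µM and 4.05% in CISP at 5 µM. In AMP at 1 mM 1.99% were more than 2-fold higher. By the same ratio, 3 of the 7 well-read members were more than 2-fold lower in MMS at 100 µM and 2 in MMS at 200 µM. With the top concentration of COL 2 were lower, and 1 in each of the 2NF and CISP libraries named. The added 1 RPM shrinks ratios of low members. In plain RPM GSTA2 was also more than 2-fold lower with the top concentration of COL (1.95 against 4.37 RPM). The same held in 2NF at 250 µM (2.88 against 5.87 RPM).

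**Figure D2:**
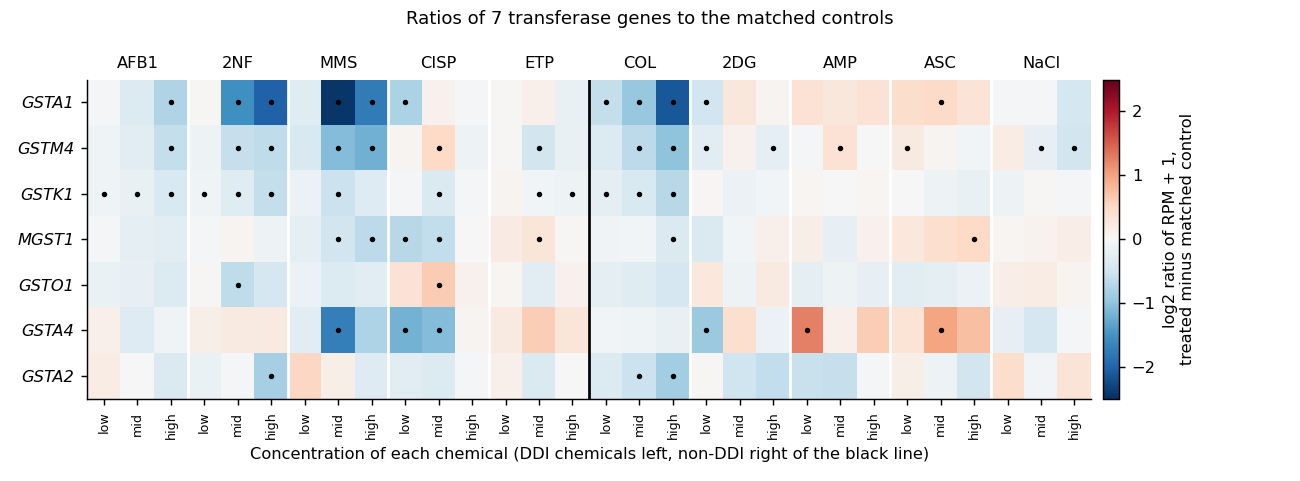
Log2 ratio of RPM + 1 to the matched control (colour) for 7 members (rows) in 30 conditions (columns, low to high within each chemical), with a dot where it is beyond the largest difference between 2 controls of the same vehicle (for MMS, the larger of the DMSO and media differences). GSTA1 has the darkest cells, down to -2.44 in MMS at 100 µM, and the DMSO difference of GSTK1 was only 0.06, so its dots include small ratios.

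GSTM4, a mu-class enzyme, fell with MMS by 0.48 ± 0.09 per step (adjusted p = 0.000346) and with COL by 0.38 ± 0.08 (adjusted p = 0.00159). MMS gave 61.3, 37.2 and 33.8 RPM against 79.6 RPM, and COL gave 65.9, 52.5 and 41.0 RPM against 83.6 RPM. Both series were lower at each further concentration. In 2NF it read 92.1, 67.5 and 64.0 RPM against 101 RPM, with a slope of -0.26 ± 0.08 that was not called (adjusted p = 0.0519) but was under DESeq2 (adjusted p = 0.0431). In AFB1 it read 77.5, 69.0 and 55.0 RPM against 83.6 RPM (slope -0.22 ± 0.08, adjusted p = 0.12). Without the 4 libraries that stand apart, 2NF (adjusted p = 0.015) and AFB1 (adjusted p = 0.0444) were called for GSTM4 and MMS was not (adjusted p = 0.732). Without all 6, COL was still called (adjusted p = 0.048), and 2NF (adjusted p = 0.13) and AFB1 (adjusted p = 0.0671) were not.

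GSTK1, the kappa enzyme, fell with COL by 0.26 ± 0.05 per step (adjusted p = 0.000725), with 2NF by 0.22 ± 0.05 (adjusted p = 0.00714) and with MMS by 0.18 ± 0.05 (adjusted p = 0.0203). Its 4 DMSO controls were closer to each other on the log2 scale than those of any other well-read member, at 447 ± 9.10 RPM (SD, n = 4), whereas the 4 media controls had 457 ± 57.6 RPM. COL gave 396, 352 and 285 RPM against 461 RPM, and 2NF gave 409, 357 and 291 RPM against 441 RPM. AFB1 gave 429, 407 and 353 RPM, with a slope of -0.15 ± 0.05 (adjusted p = 0.0674) that DESeq2 called (adjusted p = 0.0282), as did the fits without the 4 libraries (adjusted p = 0.0191) and without all 6 (adjusted p = 0.0278). The COL call was kept without all 6 (adjusted p = 0.0377), and the 2NF call was lost (adjusted p = 0.14). MMS gave 369, 280 and 323 RPM against 406 RPM, and its call was lost with library totals alone (adjusted p = 0.063), without the filter on low counts (adjusted p = 0.0504) and without the 4 libraries (adjusted p = 0.825).

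MGST1, the membrane-bound transferase, fell with MMS by 0.26 ± 0.08 per step (adjusted p = 0.0268), from 2040 RPM in the control to 1741, 1487 and 1297 RPM. With library totals alone this was not called (adjusted p = 0.0647), nor without the 4 libraries that stand apart (adjusted p = 0.83). Unlike GSTA1, its 2NF libraries (2419, 2584 and 2252 RPM) stayed near the control (2456 RPM). CISP gave 1252 and 1319 RPM at 2 and 5 µM, both among the 4 libraries, and 1993 RPM at 10 µM against 2015 RPM. ASC gave 1951, 2189 and 2299 RPM against 1626 RPM, with a slope of 0.18 ± 0.08 (adjusted p = 0.332).

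GSTO1, the omega enzyme with thioltransferase and dehydroascorbate reductase activity, had no called trend. Its lowest value was 25.2 RPM in MMS at 100 µM and its highest was 54.4 RPM in CISP at 5 µM. The largest slope in size was with 2NF, at -0.22 ± 0.08 (adjusted p = 0.124), where it read 49.4, 30.8 and 35.9 RPM against 48.3 RPM.

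**Figure D3:**
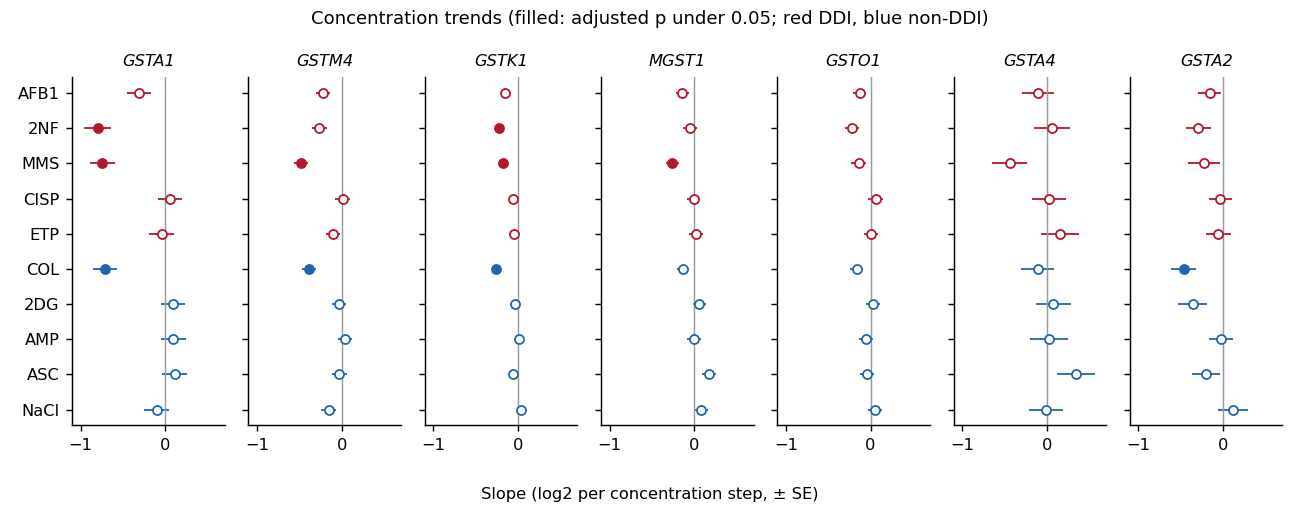
Slope of each member (horizontal axis, log2 per concentration step, bars ± SE) for each chemical (rows), with filled points for an adjusted p under 0.05, DDI chemicals in red and non-DDI chemicals in blue. The filled points all lie below 0 and belong to 2NF, MMS and COL, with GSTA1 at -0.80, -0.74 and -0.71.

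The study compares DDI with non-DDI chemicals, and the members were set against that division at each concentration in fits of 19 libraries. No member was called at the high, mid or low concentration, of 8, 8 and 9 tested with edgeR, 0 had an unadjusted p under 0.05 at any, and DESeq2 called 0. Of all genes tested, 0.0515% were called at the high concentration, 0.0% at the mid and 0.0% at the low. Chemicals served as the replicates, so the spread includes differences in potency. At the high concentration GSTA1 had log2 ratios of -0.75 (AFB1), -2.01 (2NF), -1.75 (MMS), -0.04 (CISP) and -0.18 (ETP) among DDI chemicals. Among non-DDI chemicals it had -2.11 (COL), 0.07 (2DG), 0.36 (AMP), 0.32 (ASC) and -0.44 (NaCl). The classes overlapped, since COL was the lowest of the 10 and CISP and ETP were near 0. The mean was -0.95 ± 0.90 for DDI and -0.36 ± 1.03 for non-DDI (SD, n = 5 each, exact permutation test, two-sided, p = 0.317). In the fit the GSTA1 difference was -0.44 (adjusted p = 0.918), and it ranged from -1.08 without COL to -0.17 without 2NF, called in none of these. MGST1 had the smallest such p at the high concentration, with means of -0.21 ± 0.27 and 0.11 ± 0.31 (n = 5 each, exact permutation test, two-sided, p = 0.119).

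GSTA1 and GSTA2 had higher mean RPM in DMSO than in media controls, and neither difference was called. GSTA4, of the same class, differed by 0.10 ± 0.28 log2 units (adjusted p = 0.882). GSTA1 had 1744, 1960, 2303 and 2348 RPM in the 4 DMSO controls and 1310, 1314, 1430 and 1786 RPM in the 4 media controls, so the groups overlapped by the highest media control (that of NaCl). The means were 2089 ± 288 and 1460 ± 224 RPM (SD, n = 4 each), and DMSO was higher by 0.54 ± 0.14 log2 units (SE), short of the threshold (adjusted p = 0.0513). DESeq2 (adjusted p = 0.00638) called it, as did other size factors (adjusted p = 0.0465), no filter on low counts (adjusted p = 0.0387) and a fit without the media control of NaCl (adjusted p = 0.0249). GSTA2 had 4.24, 4.37, 5.69 and 5.87 RPM in DMSO and 1.22, 2.52, 2.74 and 4.20 RPM in media, and the groups did not overlap, at 0.92 ± 0.31 log2 units (adjusted p = 0.113). GSTA2 was 1 of 7 members tested whose groups did not overlap, against 13.6% of all genes, and 0 of 7 members were called against 5.35% of all genes with edgeR (2 of 7 had an unadjusted p under 0.05, and DESeq2 called 1). The water control had 1079 RPM of GSTA1 and 1.67 RPM of GSTA2. The other 5 tested members differed by at most 0.17 log2 units.

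**Figure D4:**
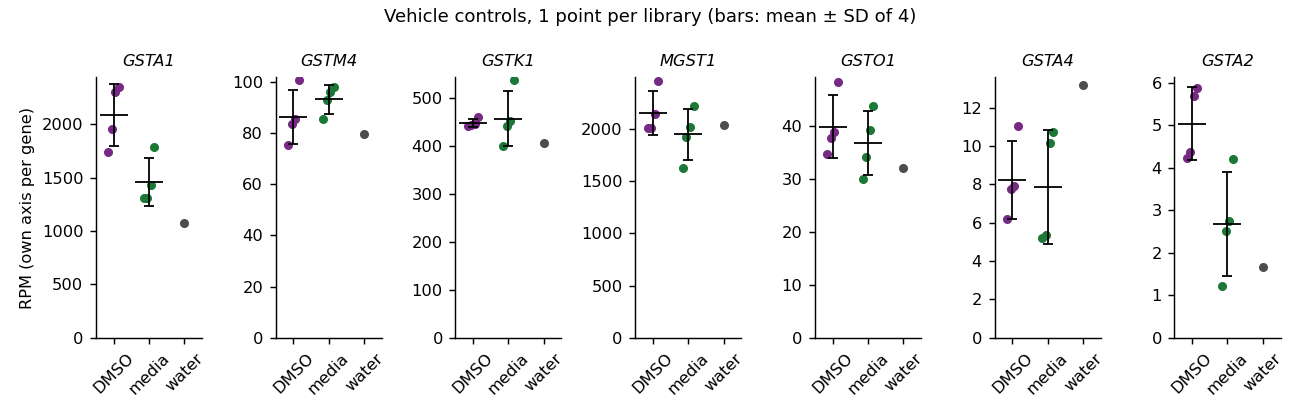
RPM of 7 members in the 9 vehicle controls, 1 point per library, each gene on its own axis from 0, with bars for the mean ± SD of the 4 DMSO and of the 4 media controls. GSTA1 (2089 against 1460 RPM) and GSTA2 lie higher in DMSO, and the DMSO points of GSTK1 nearly coincide.

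Other genes of the pathway were counted from fixed lists. Beside these counts, the shares of all genes called lower were 10.4% in MMS, 7.21% in COL, 4.45% in 2NF and 3.21% in AFB1. The shares called higher were 5.1%, 5.13%, 4.3% and 2.36%. Of 15 further transferases and related genes, 10 were tested. PTGES, a prostaglandin E synthase, rose with COL by 1.77 ± 0.32 per step (adjusted p = 0.000412) from at most 73 reads. GSTM1 rose with ASC by 0.93 ± 0.18 (adjusted p = 0.0499), at 2 to 28 reads in a library. In MMS 1 of the 10 was called lower and 0 higher, and in COL 1 was called lower beside PTGES. The counts called lower were near the shares of all genes called lower.

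Of 10 tested genes that supply glutathione, 3 were called lower in COL, 2 in MMS, 2 in AFB1 and 2 in 2NF, while 0, 1, 0 and 2 were called higher. The median slope of the list was -0.12 in COL, -0.01 in MMS, -0.02 in AFB1 and -0.01 in 2NF, beside 0.00, -0.01, 0.00 and 0.00 over all genes. MAT1A, which makes S-adenosylmethionine, and OPLAH, the 5-oxoprolinase that recycles glutamate, fell with all 4 of these chemicals, MAT1A by 0.77 ± 0.13 in COL (adjusted p = 0.000149) and OPLAH by 0.38 ± 0.08 in AFB1 (adjusted p = 0.00548). SLC7A11, the cystine importer, rose with 2NF by 0.72 ± 0.11 (adjusted p = 9.34e-05) and with MMS by 0.74 ± 0.11 (adjusted p = 8.32e-05). It is also on the list of 12 targets of the transcription factor NRF2, of which 11 were tested. Of these, 3 were called higher and 0 lower in 2NF, 2 higher and 1 lower in MMS, and 0 higher and 3 lower in COL. AKR1B10, an aldo-keto reductase of that list, fell with COL by 0.71 ± 0.08 (adjusted p = 5.86e-07).

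Among 13 tested genes that export or trim conjugates, 6 were called lower in MMS, 4 in COL and 3 in 2NF, and 0 higher in each. NAT8, which completes mercapturic acids, fell with MMS by 1.02 ± 0.26 (adjusted p = 0.0086), and GGT5, a gamma-glutamyltransferase, by 0.51 ± 0.07 (adjusted p = 1.53e-05). A further 10 tested genes use glutathione against peroxides, in thiol exchange or in clearing aldehydes. Of these, 4 were called lower in COL and 1 in each of 2NF, AFB1 and MMS, while 1 was called higher in 2NF and 1 in AFB1. HAGH, the glyoxalase II gene, fell with 2NF by 0.45 ± 0.07 (adjusted p = 6.78e-05), and GLRX, a glutaredoxin, fell with COL by 0.28 ± 0.08 (adjusted p = 0.0191).

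Of 7 tested genes that handle aflatoxin, 5 were called lower and 0 higher in AFB1, with a median slope of -0.50 (all genes 0.00). The slope of CYP3A4, which oxidises aflatoxin B1, was -1.61 ± 0.23 per step (adjusted p = 0.000181). CYP1A2 fell by 1.25 ± 0.24 (adjusted p = 0.00181). CYP2A6 had a slope of -1.34 ± 0.23 (adjusted p = 0.000547) and CYP3A5 of -0.46 ± 0.11 (adjusted p = 0.00998), and all of these are cytochrome P450 oxidases. AKR7A3, an aflatoxin aldehyde reductase, had -0.50 ± 0.12 (adjusted p = 0.00845). EPHX1, the microsomal epoxide hydrolase, had -0.08 ± 0.06 (adjusted p = 0.581) and AKR7A2 0.04 ± 0.07 (adjusted p = 0.89). In COL 6 of the 7 were called lower, and in 2NF and MMS 4 of 7 each. Of 12 liver regulators 5 were called lower in COL, 5 in MMS, 2 in AFB1 and 1 in 2NF, and 1 was higher in MMS. NR1I3, the receptor CAR that induces drug-metabolism genes, had a slope of -1.35 ± 0.24 in AFB1 (adjusted p = 0.000797), and CEBPA, a liver transcription factor, -0.73 ± 0.18 in COL (adjusted p = 0.00563).

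Of 10 hepatocyte markers, 7 were called lower in 2NF, 7 in COL, 7 in MMS and 6 in AFB1, and 0 higher. Their summed RPM ranged from 4459 to 51317 over all libraries. The sum weighs ALB most, whose median was 22105 RPM beside a median sum of 35949 RPM. It was 0.16 of the control in MMS at 100 µM, 0.295 in MMS at 200 µM and 0.371 in 2NF at 250 µM. With the top concentration of COL it was 0.48, and with that of AFB1 0.606. In COL at 0.05 and 0.1 µM it was 0.894 and 0.862, while GSTA1 was at 1520 and 1197 against 2303 RPM. For CISP at 5 µM the sum was 0.535 of the control, while GSTA1 was at 2112 against 1960 RPM. In ASC the sum was 1.4, 1.98 and 1.59 of the control at 1, 2 and 10 mM. CYP2E1, an ethanol-oxidising enzyme, fell with AFB1 by 1.39 ± 0.23 (adjusted p = 0.000503), and TAT, tyrosine aminotransferase, fell with 2NF by 1.40 ± 0.30 (adjusted p = 0.00262). The summed cholangiocyte markers ranged from 303 to 1464 RPM, and KRT19 (median 974 RPM) weighs most in that sum (median 1107 RPM). These sums were 0.395 of the control in MMS at 100 µM, 0.455 in 2NF at 250 µM and 0.824 with the top concentration of COL. In 2NF at 10 µM, where GSTA1 was level with its control, they were already at 0.429, and in CISP they were 1.93, 2.0 and 1.7 of the control at 2, 5 and 10 µM. Of the 4 tested, 3 were called lower in MMS, 1 in COL and 2 in 2NF, where 1 was higher. SPP1, the osteopontin gene, rose with 2NF by 0.39 ± 0.10 (adjusted p = 0.00827) and SOX9, a biliary transcription factor, fell by 0.42 ± 0.12 (adjusted p = 0.0252). The part of cell composition in the transferase values was not tested.

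**Figure D5:**
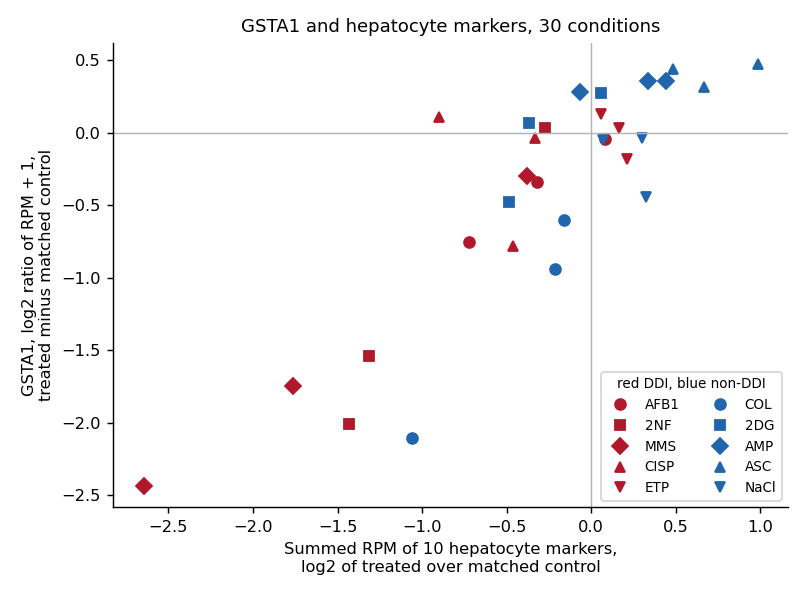
GSTA1 log2 ratio to the matched control (vertical axis) against the log2 ratio of the summed RPM of 10 hepatocyte markers (horizontal axis) in 30 conditions, with DDI chemicals in red and non-DDI chemicals in blue. The conditions with the lowest GSTA1, in MMS, COL and 2NF, also had marker sums of 0.16 to 0.48 of their control, and CISP at 5 µM (0.535) did not have low GSTA1. In COL at 0.05 and 0.1 µM GSTA1 was lower (log2 ratios -0.60 and -0.94) at marker sums of 0.894 and 0.862. ALB had the highest median of the 10 markers (22105 RPM), so it weighs most in the sum.

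Over the 30 log2 ratios, the genes outside the family most like GSTA1 among 11555 compared were ADH6, an alcohol dehydrogenase (Pearson's r = 0.95), ADRA1A, an adrenergic receptor (0.95), the glucuronosyltransferases UGT2A3 (0.94) and UGT1A9 (0.94), and GPT, alanine aminotransferase (0.93). UGT1A9 shares exons with its neighbours at the locus, so its reads are uncertain. Within the family r with GSTA1 was 0.84 for GSTM4, 0.80 for GSTK1, 0.56 for MGST1, 0.54 for GSTA4, 0.43 for GSTO1 and 0.20 for GSTA2. GSTA2 had 10 to 69 reads and a median of 2.88 RPM, so counting error and the added 1 RPM limit its r. All these r values are descriptions over conditions that share controls, so no p is given.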

How the data were processed

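RNA of 39 HepaRG™ treatment groups was profiled with the human AmpliSeq transcriptome kit. The authors aligned reads to the panel's transcripts (hg19) and deposited unnormalized counts per target and RPM values, made by dividing each count by its library's total. The RPM recomputed from counts differed by at most 0.000538. The 10 spike-in targets (largest count 0) and 6 annotation columns were not used. Groups came from the labels, and DDI classes from the study's methods. Members and lists were chosen with earlier results of these data known. Text names all members and, per list, the 2 genes with the most called trends, all genes of the aflatoxin list, and the 5 genes most correlated with GSTA1.

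Counts were tested with edgeR 4.0.16 (TMM, filterByExpr, quasi-likelihood) in R 4.3.3, with Benjamini-Hochberg adjustment over all genes and calls at 0.05. Each trend fit had 9 control-set terms and 10 slopes. Since each condition is 1 library, the spread is the scatter around these trends. Log2 ratios used RPM + 1. Alternatives included DESeq2 1.42.0, other scalings and filters, and leaving out libraries. The fits without 4 and without 6 libraries and the test that 10 slopes are equal were chosen after seeing the data. The fits were tested on simulated counts. Tables and figures used Python 3.11.15, scipy 1.17.1 and matplotlib 3.10.9. Counts carry no molecular identifiers, so intervals cover counting error only.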

Additional observations from a re-analysis of the deposited data

Results flagged for a closer look

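The concentration slopes differed between the 10 chemicals for 3 of the 9 members tested, by the edgeR quasi-likelihood test that all 10 slopes are equal. The adjusted p was 0.00174 for GSTA1 (slopes from -0.80 in 2NF to 0.11 in ASC), 0.0187 for GSTM4 (from -0.48 in MMS to 0.04 in AMP) and 0.0431 for GSTK1 (from -0.26 in COL to 0.04 in NaCl). Over all genes, 1524 of 13812 (11.0%) passed the same test. No library stood far from its group by Dixon's test in 56 checks of the 7 well-read members over 8 groups (the 4 DMSO and the 4 media controls, and the 5 chemicals of each class at each concentration). With 4 or 5 values in a group, and different chemicals within a class, this test can flag little. It therefore does not show that the libraries are alike.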

How the results depend on the processing

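The 10 member trends called lower became 12 with DESeq2, 10 with other size factors, 7 with library totals alone and 8 without the filter on low counts. They became 9 on the scale of the highest concentration, 9 without the 4 libraries of lowest correlation and 5 without these and the next 2. The last 2 fits were added after seeing the data, and in both MMS keeps only its control and 50 µM. Leaving out the controls or one concentration at a time gave 0 to 10, and those fits test fewer libraries. Trends called higher stayed at 0 in all of these. The GSTA2 slope in MMS, not called, ranged from -0.67 to 0.061 when the controls or 1 concentration were left out, changing sign without the high concentration. Without the 4 or the 6 libraries it was 0.69, in both cases from the control (21 reads) and 50 µM (28 reads) only. Members called between DDI and non-DDI chemicals stayed at 0 under every alternative run, and the GSTM4 difference at the high concentration (-0.17) ranged from -0.43 to 0.0064 when 1 chemical was left out, changing sign without MMS. Between DMSO and media controls, 1 member (GSTA1) in place of 0 was called with DESeq2, with other size factors and without the filter, and leaving out 1 control gave 0 to 1. Of 210 recomputed log2 ratios at the high concentration, 185 moved by less than the spread between controls and 25 by more. GSTP1, GSTM2 and GSTM3 had at most 15 reads in any library, and the cause was not tested.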
